A study of Mus musculus with 25 samples.

Results

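Collagen genes were followed across 5 ages of the mouse brain. They were the protein-coding genes whose symbol has the form of a collagen chain, such as Col1a2, and whose mean over 25 libraries was 0.5 CPM or more (counts scaled to a library total of 1000000, after TMM scaling). The rule gave 45 of the 47729 genes in the table, and all 45 symbols of that form reached the minimum and passed the filter on low counts, which left 17799 genes tested. The lowest mean was 0.553 CPM, of Col10a1, and no symbol of that form lay below the minimum. One of the 45, Col4a3bp, encodes a ceramide transfer protein and not a collagen. It averaged 139 CPM, did not pass the test at 24 with 2 months (log2 fold change -0.06, edgeR adjusted p = 0.159) and is left out of all counts, which leaves 44 collagens. These were 11 fibrillar, 8 basement membrane, 9 fibril-associated, 6 microfibrillar (type VI), 4 transmembrane and 3 short chain collagens, 1 chain of anchoring fibrils and 2 others.

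The RNA came from brain hemispheres of male C57BL/6 mice, an inbred strain with no transgene or treatment named in the labels, with 5 libraries each at 2, 9, 15, 24 and 30 months of age. The ages can be compared with the youngest group or with each other, and every fold change below is the older over the younger age. The depth, in units of 1000000 counts per library, lay between 17.8 and 31.3. The labels do not say in words that each library is 1 animal, so the p-values measure the spread between these libraries.

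Collagens are built from 3 chains wound into a triple helix, which requires a glycine at the head of each triplet of residues. Fibrillar collagens (types I, II, III, V, XI, XXIV and XXVII) pack into fibrils. Type IV forms the sheet of basement membranes together with laminins and nidogens, and types XV and XVIII are proteoglycan collagens of the same sheets. In brain, type I and III collagen are known from fibroblasts of the meninges and of vessel walls, type IV from the basement membrane of capillaries, and some transmembrane and fibril-associated chains, such as Col25a1 and Col19a1, from neurons.

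The glycine repeat could be read in the transcripts themselves. The stretches below are the first 10 triplets of the longest unbroken run of triplets that start with glycine, with the glycine codon in capitals. They were taken from the longest protein-coding transcript of GENCODE M21 (GRCm38), and are shown for 4 chains that changed with age. The coordinates span the exons that hold each stretch and the introns between them (Col1a2, chr6:4512406-4515516, plus strand; Col2a1, chr15:97996507-97997320, minus strand; Col5a3, chr9:20801077-20801260, minus strand; Col6a2, chr10:76611948-76613290, minus strand).
Col1a2: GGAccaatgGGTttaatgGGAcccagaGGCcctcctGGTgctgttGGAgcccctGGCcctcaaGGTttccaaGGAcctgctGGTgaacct
Col2a1: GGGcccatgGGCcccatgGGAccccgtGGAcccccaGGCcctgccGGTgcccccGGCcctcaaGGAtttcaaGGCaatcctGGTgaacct
Col5a3: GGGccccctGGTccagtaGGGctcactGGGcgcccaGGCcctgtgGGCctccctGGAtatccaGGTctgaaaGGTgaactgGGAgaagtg
Col6a2: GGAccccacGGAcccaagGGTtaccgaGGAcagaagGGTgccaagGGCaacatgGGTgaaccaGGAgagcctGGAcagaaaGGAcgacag
The run was 337 to 344 triplets long in 9 of the 11 fibrillar chains, 216 in Col24a1 and 217 in Col27a1. It was 87 triplets in Col6a1 and Col6a2 and 113 in the type IX chains and Col22a1, the longest outside the fibrillar class. In the 8 basement membrane chains it was 30 to 66 triplets, with interruptions between runs. Glycine and proline codons are rich in G and C. The transcripts of collagens had a median GC content of 55.4%, against 49.96% over 17738 tested genes with a value, and 36 of the 44 collagens lay above that value.

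Levels can be compared between genes only per length, here as CPM per kilobase of the longest coding transcript over the 20 libraries of 2 to 24 months. Col6a1, a chain of the beaded filaments of type VI collagen, stood highest at 19.3 CPM per kilobase. Col25a1, a transmembrane collagen of neurons also found in amyloid plaques, followed at 14.3. The main chains of basement membranes, Col4a2 and Col4a1, stood at 9.83 and 8.61. Col1a2 stood at 6.51 and Col1a1 at 3.95, and Col3a1 at 2.14. Col2a1, the cartilage collagen, stood at 0.494 CPM per kilobase, and the lowest chains, Col4a3, Col10a1 and Col9a1, stood at 0.163, 0.168 and 0.172. The lowest library of Col6a1 lay above the highest of Col25a1, and likewise Col25a1 above Col4a2. The ranges of all other neighbours in this order overlapped, as the plot of levels per length shows. The order depends on the length used. Per kilobase of all annotated exon bases Col6a1 still led at 18.02, with Col4a2 at 9.58, Col4a1 at 7.63 and Col25a1 at 7.41.

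**Figure D1:**
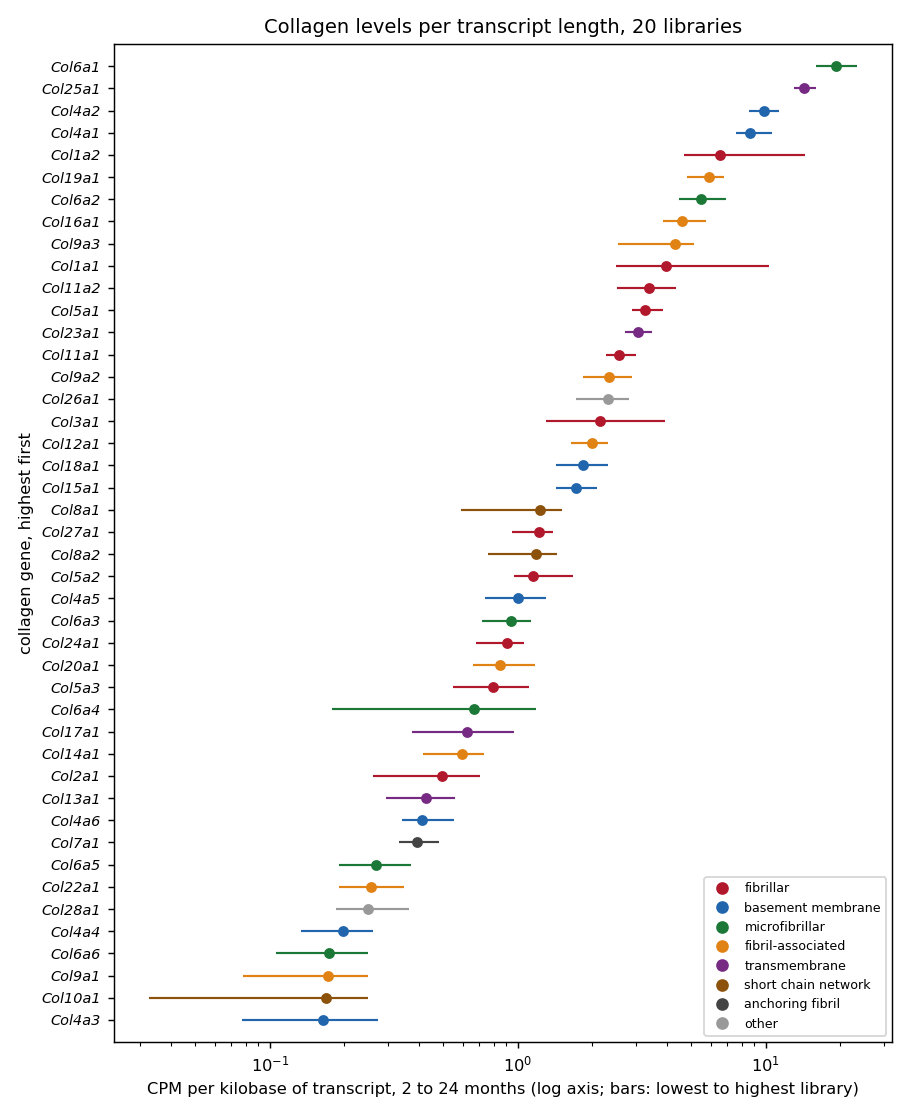
Level of each of 44 collagens in CPM per kilobase of its longest coding transcript (log axis), coloured by class. Points are means of 20 libraries of 2 to 24 months, and bars run from the lowest to the highest library. Col6a1 leads at 19.3 and Col4a3 is last at 0.163.

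The summed level of all 44 collagens overlapped between the ages. It was 665 to 785 CPM at 2 months, 643 to 668 at 9 months, 651 to 678 at 15 months, 656 to 752 at 24 months and 622 to 701 at 30 months. The 11 fibrillar collagens summed to 150 to 168 CPM in 24 month libraries, against 161 to 265 in 2 month libraries. The 8 basement membrane collagens summed to 153 to 169 CPM at 24 months, against 137 to 174 at 2 months. In bulk tissue, fewer cells of a type and less RNA per cell cannot be told apart.

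The libraries also differed in features other than age. Replicates 2 to 5 of 30 months read genes of high GC content high and genes of low GC content low. The median log2 ratio of the 10% of genes richest in GC exceeded that of the 10% poorest by 1.10 to 2.02 in these 4 libraries, and by 0.141 in replicate 1 of 30 months. Over the 20 younger libraries the same difference was -0.25 to 0.16. Liver transcripts were also present, and Alb, the albumin of blood plasma made in liver, stood at 38.5 to 171 CPM in all 5 libraries of 24 months. It was at 7.73 to 91.5 CPM at 15 months, 0.565 to 24.2 at 9 months and 0 to 5.62 in 4 libraries of 2 months, with 128 in replicate 3. At 30 months it was 125 CPM in replicate 3 and at most 0.30 in the others. The 10 liver markers summed to 62.3 to 252.01 CPM at 24 months, 18.04 to 135 at 15 months and 3.81 to 193 over the libraries of 2, 9 and 30 months. One of them, Ttpa, stood at 3.86 to 5.71 CPM in all 20 younger libraries, and at 1.07 to 2.02 in replicates 2 to 5 of 30 months. In replicate 2 of 2 months, with Alb at 0, Ttpa gave 5.21 of the 6.99 CPM. The low end of the sum is therefore not a measure of liver RNA alone. The markers of neurons, the labelled tissue's defining cells, summed to 5507 to 7006 CPM over all 25 libraries.

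Type I and type III collagen fell after 2 months. Col1a2 (ENSMUSG00000029661, GRCm38 chromosome 6, 4504814 to 4541544), the second chain of type I collagen, stood at 43.9, 52.8, 35.4, 77.0 and 41.0 CPM in the 2 month libraries. It was at 29.9, 33.1, 28.5, 33.7 and 30.0 CPM at 9 months, at 30.8, 30.3, 29.6, 31.2 and 27.4 at 15 months, and at 28.7, 31.8, 24.9, 28.04 and 28.6 at 24 months. Every library of 9, 15 and 24 months lay below every library of 2 months. The log2 fold change was -0.67 (SE 0.15) at 9 with 2 months, -0.73 (SE 0.16) at 15 with 2 and -0.80 (SE 0.15) at 24 with 2 months, with edgeR adjusted p = 0.0076, 0.00589 and 0.0014. The fall was past the test at 9 months already, and at 24 with 9 months the log2 fold change was -0.13 (SE 0.16, adjusted p = 0.581).

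Col1a1 (ENSMUSG00000001506, chromosome 11, 94936224 to 94953042), the other chain of type I collagen, stood at 18.2, 20.4, 14.7, 18.5 and 17.3 CPM in the 24 month libraries, against 25.8, 35.5, 18.2, 60.8 and 31.2 CPM in the 2 month libraries. The groups overlapped through replicate 3 of 2 months. The log2 fold change was -0.92 (SE 0.23, edgeR adjusted p = 0.00861). At 9 with 2 months it was -0.69 (adjusted p = 0.0561) and at 15 with 2 months -0.70 (adjusted p = 0.0555), neither past the test. Replicate 4 of 2 months was the highest library of all 25 in both chains. Without it the log2 fold change at 24 with 2 months was -0.62 in Col1a1 and -0.60 in Col1a2, and both stayed past the test.

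Col3a1 (ENSMUSG00000026043, chromosome 1, 45311538 to 45349706), the single chain of type III collagen of vessels and soft tissue, stood at 9.28, 9.30, 7.61, 8.71 and 7.23 CPM at 24 months, against 17.9, 21.9, 9.92, 19.7 and 15.2 at 2 months. The groups did not overlap, and the log2 fold change was -0.99 (SE 0.20, edgeR adjusted p = 0.00236), a level 0.504 of that at 2 months. At 9 and 15 months Col3a1 averaged 11.7 ± 2.66 and 10.7 ± 1.71 CPM (SD, n = 5 each). The fall was past the test at 15 months (log2 fold change -0.65, adjusted p = 0.0464) and not at 9 months (-0.52, adjusted p = 0.0927).

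The library with the most Alb within an age was also the lowest of that age in Col1a1, Col1a2 and Col3a1 at 2, 9 and 30 months. At 24 months, counted from the lowest of 5, it ranked 2 in Col1a1, 3 in Col1a2 and 1 in Col3a1. At 15 months it was the highest in Col1a1 and ranked 3 in Col1a2 and 2 in Col3a1. With the log2 level of the liver markers as a covariate, the log2 fold change at 24 with 2 months was -0.62 for Col1a1, -0.62 for Col1a2 and -0.48 for Col3a1. The edgeR adjusted p-values were then 0.22, 0.0587 and 0.134, so that none of the 3 passed the test, with 11.6% of all genes called. At 9 with 2 months, where the liver markers summed to 6.87 to 41.1 CPM in the older group and 6.99 to 193 in the younger, the covariate left Col1a2 at -0.67 (adjusted p = 0.00735), and Col3a1 passed there at -0.51 (adjusted p = 0.0236). At 15 with 2 months Col1a2 passed with the covariate (-0.60, adjusted p = 0.0392) and Col3a1 did not (-0.28, adjusted p = 0.336). At 30 with 2 months all 3 chains passed with the covariate. The log2 fold changes were -0.75 for Col1a1, -0.69 for Col1a2 and -0.78 for Col3a1 (edgeR adjusted p = 0.00245, 0.000244 and 8.37e-05). Replicates 2 to 5 of 30 months carried the GC difference described above. At 24 with 2 months the covariate overlaps with age. The liver markers had a median sum of 206 CPM at 24 months and 10.4 CPM at 2 months. The part of liver RNA in the fall at 24 months was not tested beyond this covariate.

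**Figure D2:**
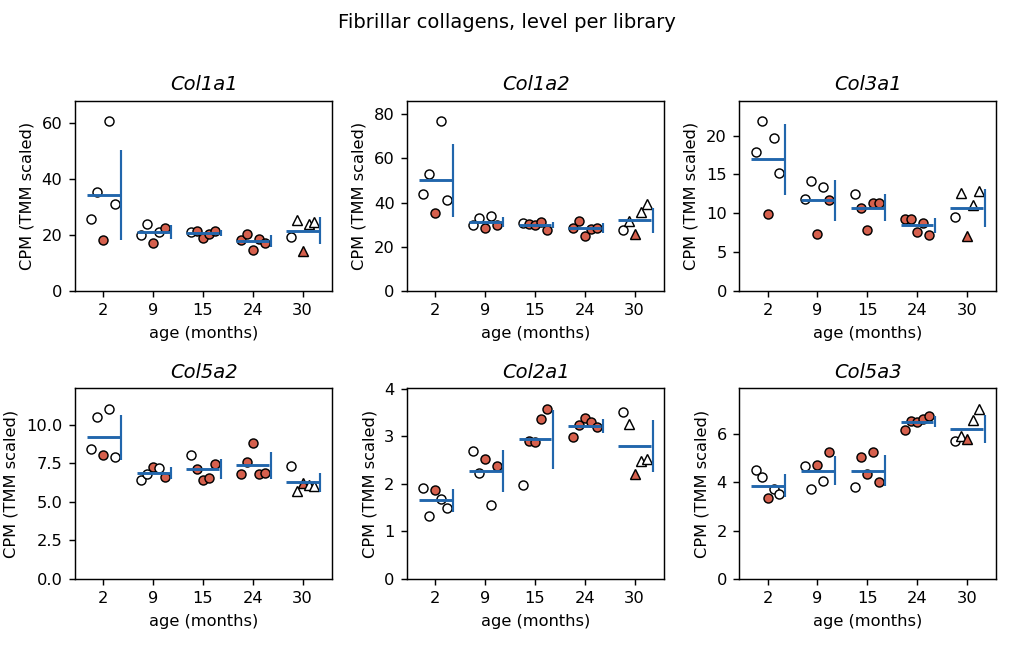
CPM after TMM scaling (y axis, from 0) of 6 fibrillar collagens in each library by age in months, with the mean as a line and the SD as a vertical bar (n = 5). Filled points are libraries with Alb at 10 CPM or more, and triangles are replicates 2 to 5 of 30 months. Col1a1, Col1a2 and Col3a1 are widest and highest at 2 months, while Col2a1 and Col5a3 are lowest there.

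Of the other fibrillar chains, Col5a2, a chain of the type V collagen found inside type I fibrils, averaged 6.86 ± 0.372 CPM at 9 months, against 9.18 ± 1.45 CPM at 2 months (SD, n = 5 each). Its 9 month libraries all lay below those of 2 months (log2 fold change -0.41, edgeR adjusted p = 0.0033), and it stayed lower at 15 months (-0.36, adjusted p = 0.0106) and 24 months (-0.31, adjusted p = 0.0166). Col11a2 and Col11a1, chains of the related type XI collagen of cartilage, fell at 9 with 2 months (-0.41, adjusted p = 0.00425, and -0.22, adjusted p = 0.011). Col11a2 was lower at 24 with 2 months as well (-0.27, adjusted p = 0.0337). Col5a1, the main chain of type V, did not pass, with 28.5 ± 3.16 CPM at 24 months and 27.7 ± 2.92 at 2 months (SD, n = 5 each; log2 fold change 0.04, adjusted p = 0.734).

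Col2a1 and Col5a3 rose with age, and at 24 with 2 months they were the 2 fibrillar chains past the test that were higher, against 5 that were lower. Col2a1 (ENSMUSG00000022483, chromosome 15, 97975602 to 98004695), the fibril collagen of cartilage, stood at 1.91, 1.33, 1.86, 1.69 and 1.48 CPM at 2 months. It reached 2.69, 2.22, 2.52, 1.55 and 2.38 CPM at 9 months, 1.97, 2.90, 2.88, 3.37 and 3.58 at 15 months and 2.98, 3.23, 3.39, 3.31 and 3.20 at 24 months. The 2 month libraries overlapped with those of 9 months and lay below all of those of 15 and 24 months. Against 2 months the log2 fold change was 0.46 (SE 0.16) at 9 months, 0.83 (SE 0.15) at 15 and 0.95 (SE 0.15) at 24 months, with edgeR adjusted p = 0.0448, 0.000496 and 2.81e-05. At 24 with 9 months it was 0.49 (SE 0.14, adjusted p = 0.00817). With the liver covariate the rise at 24 with 2 months was 0.69 (adjusted p = 0.00823), and at 24 with 9 months the value was 0.21 and did not pass (adjusted p = 0.445). The 10 markers of cartilage and bone include Col10a1, itself a collagen followed here. They summed to 7.97 to 9.04 CPM at 24 months, against 8.19 to 10.6 at 2 months, and none of the 6 that were tested passed.

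Col5a3 (ENSMUSG00000004098, chromosome 9, 20770050 to 20815067), the third chain of type V collagen, stood at 6.16, 6.55, 6.50, 6.62 and 6.76 CPM at 24 months, against 4.50, 4.24, 3.34, 3.71 and 3.53 at 2 months. All 24 month libraries lay above all younger libraries, the highest of which had 5.27 CPM, and the spread at 24 months was narrow. The log2 fold change was 0.76 (SE 0.10, edgeR adjusted p = 4.23e-06) at 24 with 2 months and 0.54 (SE 0.10, adjusted p = 0.000178) at 24 with 9 months. At 9 with 2 and 15 with 2 months it was 0.23 in both and not past the test (adjusted p = 0.174 and 0.168). With the liver covariate it was 0.73 at 24 with 2 months (adjusted p = 0.000695). Of the 3 chains of type V collagen, Col5a3 rose and Col5a2 fell at 24 with 2 months, and Col5a1 did not pass the test.

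The 250 bases before the transcription start are shown for Col3a1 and Col5a3, as the chain that fell furthest and the chain that rose with the smallest p at 24 with 2 months. They are RefSeq sequence of GRCm38.p6, 5′ to 3′ on the gene's strand, for chr1:45311288-45311537 (plus strand) and chr9:20815068-20815317 (minus strand). Neither overlaps an annotated exon. Capitals mark the TATA box letters TATAAA, the CCAAT box and the GC box letters GGGCGG, searched on both strands, so that a GC box can also read as CCGCCC.
Col3a1: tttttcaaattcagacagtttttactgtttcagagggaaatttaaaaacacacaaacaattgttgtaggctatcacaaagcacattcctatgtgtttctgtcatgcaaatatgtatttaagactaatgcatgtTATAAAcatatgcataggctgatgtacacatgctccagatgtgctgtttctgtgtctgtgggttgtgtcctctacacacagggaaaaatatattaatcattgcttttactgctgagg
Col5a3: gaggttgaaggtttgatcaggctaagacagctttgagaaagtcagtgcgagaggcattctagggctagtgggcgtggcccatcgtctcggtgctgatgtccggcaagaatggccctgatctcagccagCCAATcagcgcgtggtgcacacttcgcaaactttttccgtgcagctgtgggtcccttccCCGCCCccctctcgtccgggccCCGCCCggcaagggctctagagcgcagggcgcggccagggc
The Col3a1 window held 1 TATAAA and neither of the other motifs, with a GC content of 35.2%. The Col5a3 window held 1 CCAAT and 2 GGGCGG, with a GC content of 62.8%. Of all 32851 windows of this length in the RefSeq table, 12.4% held the TATA box letters, 33.8% held CCAAT and 32.7% held the GC box letters. Of 38 windows of 35 collagens, 13.2%, 34.2% and 57.9% held them. These are matches of letters, and 9 collagens had no window in the table.

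At 24 with 2 months, 7 collagens rose and 6 fell of 44 tested, against 22.3% of all 17799 genes called in either direction (10.8% higher and 11.5% lower). The 7 that rose were Col2a1, Col5a3, Col6a2, Col6a3, Col6a5, Col16a1 and Col18a1, and the 6 that fell were Col1a1, Col1a2, Col3a1, Col5a2, Col11a2 and Col12a1. Among fibrillar chains 2 rose and 5 fell of 11, with a median log2 fold change of -0.21, and among basement membrane chains 1 rose and none fell of 8, with a median of 0.04. The median over all 44 was 0.05, against 0.00202 over all genes. In 6 of the 44 the libraries did not overlap, against 14.4% of all genes. Among the 8 basement membrane chains 3 had an unadjusted p under 0.05. With the liver covariate 3 collagens passed, Col2a1, Col5a3 and Col6a2, all higher, against 11.6% of all genes.

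**Figure D3:**
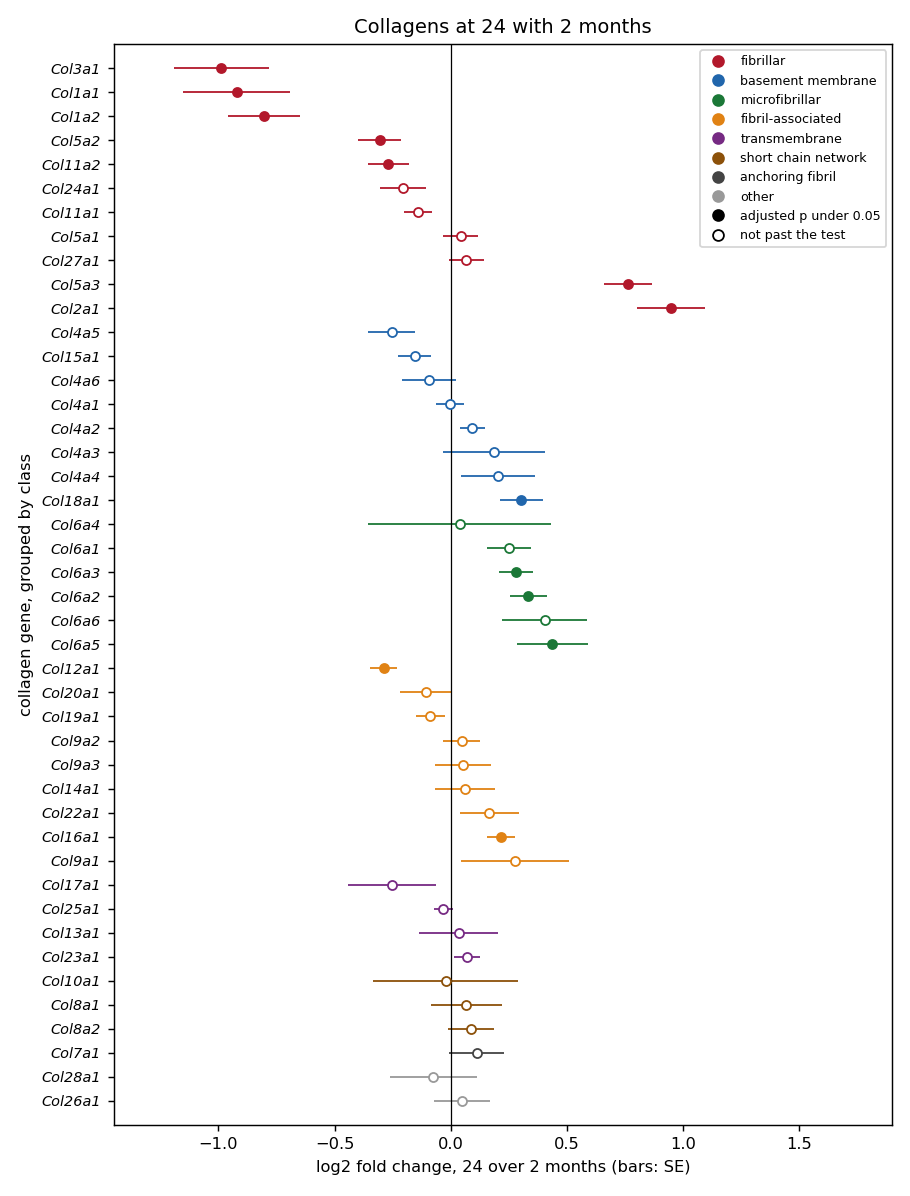
Log2 fold change of 44 collagens at 24 over 2 months with the SE as a bar, grouped by class, filled where the edgeR adjusted p was under 0.05. The fibrillar class spans -0.99 (Col3a1) to 0.95 (Col2a1), while all 6 microfibrillar chains lie above 0.

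At 9 with 2 months 1 collagen rose and 6 fell, against 14.5% of all genes called (7.76% higher and 6.79% lower), and in 4 the libraries did not overlap, against 9.8% of all genes. At 15 with 2 months 1 rose and 5 fell, against 12.6% (5.31% higher and 7.3% lower), and in 2 the libraries did not overlap, against 10.3%. In both comparisons the rise was Col2a1, and the falls in both were Col1a2, Col5a2, Col11a1 and Col15a1. The other falls at 9 with 2 months were Col11a2 and the short chain Col8a2 (log2 fold change -0.32, edgeR adjusted p = 0.0326). Col8a2 averaged 5.35 ± 0.645 CPM at 2 months, 4.30 ± 0.689 at 9 months and 5.68 ± 0.347 at 24 months (SD, n = 5 each). At 24 with 2 months Col8a2 was at 0.09 and did not pass (adjusted p = 0.562). All comparisons with 2 months share the same libraries of 2 months, so they are not independent of each other. At 24 with 9 months 11 rose and 1 fell, against 30.3% of all genes (15.2% higher and 15.1% lower), so that the share of collagens called, 12 of 44, was near that of all genes. With the liver covariate 4 rose and none fell there, against 15.5% of all genes. The libraries did not overlap in 8 collagens there, against 17.7% of all genes. The 5 rises there not found at 24 with 2 months were the fibril-associated Col9a3 (log2 fold change 0.39) and Col22a1 (0.34), the fibrillar Col27a1 (0.20), the short chain Col8a2 (0.41) and the transmembrane Col23a1 (0.16). In the linear trend over the 20 libraries of 2 to 24 months 7 collagens rose and 4 fell, against 16.6% of all genes (8.16% higher and 8.41% lower). In all, 21 collagens passed the test in at least 1 of these 5 comparisons and 23 in none.

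Several of these calls were lost when 1 library was left out, in many cases any of several libraries. At 24 with 2 months Col11a2 lost its call without replicate 2, 4 or 5 of 2 months or 1, 2 or 3 of 24 months, and Col6a5 without replicate 1, 3 or 5 of 2 months or 2, 3, 4 or 5 of 24 months (adjusted p up to 0.0875 and 0.103). Col5a2 lost it without replicate 2 or 4 of 2 months, and Col18a1 without replicate 1 or 5 of 2 months (up to 0.0726 and 0.0635). At 15 with 2 months Col3a1 kept its call only without replicate 3 of 2 months (otherwise up to 0.112), Col15a1 lost its call without that library (0.0609), and Col11a1 lost its call without replicates 2, 4 or 5 of 2 months or 1 to 4 of 15 months (up to 0.0961). At 9 with 2 months Col2a1 lost its call without replicate 2, 4 or 5 of 2 months or 1, 2, 3 or 5 of 9 months, and Col8a2 without replicate 1, 2 or 4 of 2 months or 1 or 3 of 9 months (up to 0.13 and 0.131).

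At 24 with 9 months the count was 7 rises and no fall without replicate 3 of 24 months. There Col27a1 lost its call without replicate 2, 3 or 4 of 9 months or 1, 3 or 5 of 24 months (adjusted p up to 0.153), Col12a1 without replicate 2, 3, 4 or 5 of 9 months or 3, 4 or 5 of 24 months (0.147), and Col22a1 without replicate 2, 3 or 4 of either age (0.124). Col6a2 lost it without replicate 4 or 5 of 9 months or 1, 2 or 3 of 24 months (0.0735), Col9a3 without replicate 2 of 9 months (0.058) and Col23a1 without replicate 1 or 3 of 24 months (up to 0.0757).

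Type VI collagen forms beaded filaments around cells and vessels. Of its 6 chains 3 rose and none fell at 24 with 2 months, against 10.8% of all genes higher and 11.5% lower. Of the 6, 5 had an unadjusted p under 0.05. The median log2 fold change of the 6 was 0.31. Col6a2 (ENSMUSG00000020241, chromosome 10, 76595762 to 76623630) stood at 31.3, 31.4, 32.1, 25.5 and 23.6 CPM at 24 months, against 22.2, 25.98, 22.4, 20.7 and 23.01 at 2 months. The groups overlapped, since replicates 4 and 5 of 24 months lay within the range of 2 months. The log2 fold change was 0.33 (SE 0.08, edgeR adjusted p = 0.00421). Col6a3 averaged 10.6 ± 0.71 CPM at 24 months and 8.72 ± 0.987 at 2 months (SD, n = 5 each; log2 fold change 0.28, adjusted p = 0.00501), and Col6a5 rose by 0.44 (adjusted p = 0.0393) without overlap. Col6a1 averaged 85.8 ± 13.4 CPM at 24 months and 72.2 ± 6.48 at 2 months (SD, n = 5 each; 0.25, adjusted p = 0.0703). Its trend over 2 to 24 months just passed (0.24 over 22 months, adjusted p = 0.0485) and was lost in 14 of the 20 fits that left out 1 library (adjusted p up to 0.131). With the liver covariate Col6a2 still passed at 24 with 2 months (0.39, edgeR adjusted p = 0.017). Col6a3 and Col6a5 then did not pass (0.27 and 0.34, adjusted p = 0.0606 and 0.289). Col6a6 and Col6a4 did not pass in any comparison.

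Within an age, Col6a1 and Col6a2 varied together. After the age means were removed, their log2 levels over the 20 libraries of 2 to 24 months correlated with Pearson r = 0.86 and Spearman rho = 0.78 (permutation of libraries within age, adjusted over 8 pairs, p = 0.00152 and 0.00816), and r was 0.79 without replicates 1 and 5 of 24 months, the farthest from the median in Col6a1. Col1a1 and Col1a2 gave r = 0.92 and rho = 0.73 (permutation, adjusted p = 0.00172 and 0.0137), with r = 0.67 without replicates 3 and 4 of 2 months. Col4a1 and Col4a2, which are partners in type IV collagen, gave r = 0.77 and rho = 0.61 (permutation, adjusted p = 0.0154 and 0.0444), with r = 0.47 without replicates 1 and 5 of 2 months. Col1a2 and Col3a1 gave r = 0.61 (permutation, adjusted p = 0.07) and rho = 0.74 (0.00844), and r = 0.62 without replicates 3 and 4 of 2 months. The 4 other pairs, Col9a1 with Col9a3, Col1a2 with Col4a1, Col1a2 with Col2a1 and Col3a1 with Col5a2, gave r = 0.22, 0.11, -0.27 and 0.37 (permutation, adjusted p = 0.59, 0.812, 0.294 and 0.281).

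The ratio of the chains was followed in the same libraries. Type I collagen is made of a pair of Col1a1 chains for each Col1a2 chain. Per kilobase of the longest coding transcript, Col1a1 stood below Col1a2 in every library. The ratio of Col1a1 to Col1a2 was 0.533 to 0.595 at 24 months, against 0.464 to 0.713 at 2 months. The ratio of Col4a1 to Col4a2 was 0.779 to 0.927 at 24 months, against 0.877 to 0.940 at 2 months. These ratios depend on the lengths used. Per kilobase of all annotated exon bases the order was reversed, with means of 3.57 for Col1a1 and 2.80 for Col1a2 over 2 to 24 months.

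**Figure D4:**
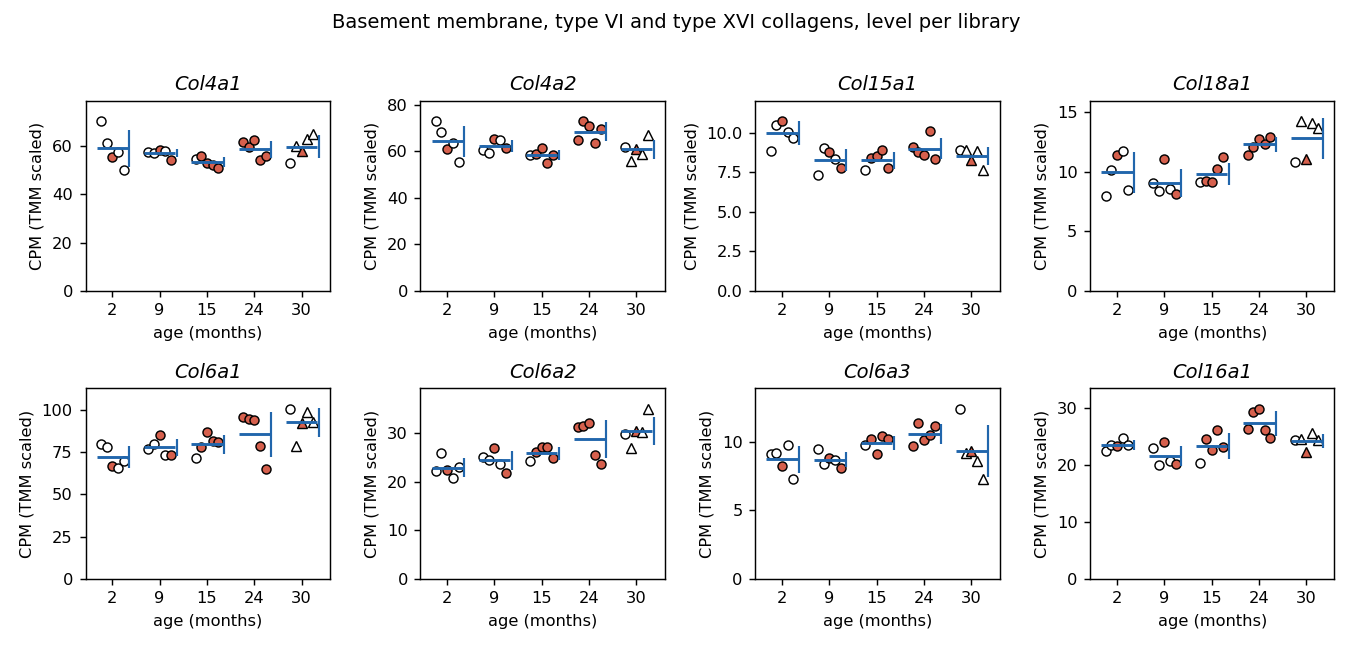
CPM after TMM scaling (y axis, from 0) of 8 further collagens in each library by age in months, with the mean as a line and the SD as a vertical bar (n = 5). Filled points are libraries with Alb at 10 CPM or more, and triangles are replicates 2 to 5 of 30 months. Col4a1 stays between 50.1 and 70.4 CPM, and Col6a2 and Col18a1 are higher at 24 than at 2 months.

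The type IV chains did not pass the test in any comparison of 2 to 24 months. At 15 with 2 months all 8 basement membrane chains were lower, and 5 had an unadjusted p under 0.05 (edgeR). Of these 5, Col15a1 passed. The others were Col4a1 (log2 fold change -0.14), Col4a2 (-0.14), Col4a5 (-0.24) and Col4a6 (-0.29), with edgeR adjusted p of 0.104 to 0.14. Col4a1 averaged 53.3 ± 2.07 CPM at 15 months and 58.9 ± 7.58 at 2 months (SD, n = 5 each). Col4a1 (ENSMUSG00000031502, chromosome 8, 11198423 to 11312826) stood at 61.6, 59.4, 62.4, 54.4 and 55.7 CPM at 24 months, against 70.4, 61.4, 55.4, 57.5 and 50.1 at 2 months. The groups overlapped, with the wider range at 2 months, and the log2 fold change was -0.0042 (SE 0.06, edgeR adjusted p = 0.973). Col4a2 averaged 68.5 ± 4.07 CPM at 24 months and 64.3 ± 6.64 at 2 months (SD, n = 5 each; 0.09, adjusted p = 0.229). Col4a1 and Col4a2 lie head to head, with 22 bases of overlap between their annotated exons. The starts of Col4a3 and Col4a4 are 72 bases apart, and those of Col4a5 and Col4a6 1309 bases. Col4a3, Col4a4, Col4a5 and Col4a6 averaged 1.17 to 7.46 CPM by age over 2 to 24 months, and none passed there. The markers of endothelium summed to 321 to 344 CPM at 24 months, against 322.7 to 392 at 2 months, and 1 of the 10 rose and 3 fell at 24 with 2 months, against 10.8% of all genes higher and 11.5% lower.

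Col18a1, whose end is released as endostatin, stood at 7.96, 10.1, 11.4, 11.7 and 8.44 CPM at 2 months. It was at 9.01, 8.38, 11.1, 8.57 and 8.12 CPM at 9 months and at 11.4, 12.1, 12.8, 12.3 and 12.9 at 24 months. The 24 month libraries overlapped with those of 2 months and lay above all of those of 9 months. The log2 fold change was 0.30 (SE 0.09, edgeR adjusted p = 0.019) at 24 with 2 months and 0.44 (SE 0.09, adjusted p = 0.000761) at 24 with 9 months. With the liver covariate it was 0.13 (adjusted p = 0.472) and 0.26 (adjusted p = 0.104). Its relative Col15a1 went the other way early, at 8.27 ± 0.698 CPM at 9 months, against 9.97 ± 0.757 at 2 months (SD, n = 5 each; log2 fold change -0.27, adjusted p = 0.0109), and at 24 with 2 months it did not pass. The mural cell markers, of vessel walls, were lower in 6 of 10 at 9 with 2 months, against 6.79% of all genes lower, with sums of 264 to 309 CPM at 9 months, against 325.4 to 384 at 2 months. Their part in the values of Col15a1 was not tested.

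Among fibril-associated chains, which coat fibrils, Col16a1 stood at 26.4, 29.4, 29.9, 26.2 and 24.7 CPM at 24 months, against 22.5, 23.5, 23.4, 24.8 and 23.5 at 2 months. Only replicate 5 of 24 months lay within the range of 2 months. The log2 fold change was 0.22 (SE 0.06, edgeR adjusted p = 0.0116), and 0.33 (SE 0.06, adjusted p = 0.000175) at 24 with 9 months without overlap. Col12a1, a large chain at the surface of type I fibrils, stood at 21.1, 21.1, 18.8, 20.4 and 19.6 CPM at 24 months, against 24.9, 26.5, 23.4, 23.7 and 24.8 at 2 months. All 24 month libraries lay below those of 2 months (log2 fold change -0.29, SE 0.06, adjusted p = 0.000643). The transmembrane Col25a1 did not pass in any comparison of 2 to 24 months, with age means of 93.5 to 97.7 CPM.

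At 30 months 5 collagens rose and 12 fell of 44 relative to 2 months, against 58% of all genes called (28.5% higher and 29.5% lower), and in 7 the libraries did not overlap, against 23.9%. With a correction for GC content in each library, 1 rose and 18 fell, against 44.8% of all genes called, and 12 of these 19 were among the 17 called without it. Relative to 24 months 2 rose and 10 fell, against 54.5% of all genes (25.5% higher and 29% lower), and in 3 the libraries did not overlap, against 16.5%. In Col19a1, a fibril-associated collagen of neurons, replicate 1 of 30 months had 24.6 CPM, while replicates 2 to 5 had 10.7, 14.9, 11.8 and 8.16 CPM, against 21.4 to 28.5 CPM at 24 months. Col25a1 stood at 88.3 CPM in replicate 1 and 78.2, 70.7, 68.6 and 60.1 CPM in replicates 2 to 5, against 88.5 to 100.3 at 24 months. Col12a1 stood at 21.2 CPM in replicate 1 and 12.2 to 14.1 in the others, and Col11a1 at 22.5 CPM in replicate 1 and 9.13 to 13.7 in the others. The log2 fold changes relative to 24 months were -0.80 for Col19a1, -0.38 for Col25a1, -0.45 for Col12a1 and -0.55 for Col11a1 (edgeR adjusted p = 0.000434, 0.00015, 0.001 and 0.00371). With the GC correction Col25a1 was at -0.09 and did not pass (adjusted p = 0.108), while the other 3 kept their calls. In all 4 genes replicate 1 lay within or next to the range of 24 months, and replicates 2 to 5 lay below it.

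Across the 44 collagens, the Pearson r between the GC content of the transcript and the log2 ratio to the 24 month mean was -0.11 in replicate 1. In replicates 2, 3, 4 and 5 it was 0.26, 0.31, 0.46 and 0.60. This describes genes within a library and not independent samples. With replicate 1 alone at 30 months, assumed to vary like the other ages, 3 collagens rose and none fell relative to 2 months (7.26% of all genes called), and none passed relative to 24 months (edgeR), where 4 of the 44 had an unadjusted p under 0.05. The 3 rises were Col2a1, Col5a3 and Col6a3. With the GC correction over all 5 libraries, 20 fell and none rose relative to 24 months, against 40.3% of all genes called, and 9 of the 20 were among the 12 called without it. Age and this property of the libraries cannot be told apart in replicates 2 to 5.

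The other collagens past the test at 30 with 24 months were Col4a6 (log2 fold change 0.28) and the transmembrane Col17a1 of hemidesmosomes (0.50), both higher, and Col4a2 (-0.17), Col9a1 (-0.64), Col16a1 (-0.17), Col20a1 (-0.30), Col24a1 (-0.43) and Col6a5 (-0.74), all lower. Of these 8, 7 lost their call in at least 1 of the 10 fits that left out 1 library, with edgeR adjusted p up to 0.0651 for Col17a1, without replicate 5 of 24 months, and up to 0.198 for Col20a1. Col6a5 kept its call in all 10. With the liver covariate Col4a6 and Col6a5 kept their calls (0.36 and -0.75, edgeR adjusted p = 0.0402 and 0.0325). Col17a1 (0.14), Col4a2 (-0.20), Col9a1 (-0.48), Col16a1 (-0.17), Col20a1 (-0.27) and Col24a1 (-0.48) then did not pass (adjusted p = 0.581, 0.0509, 0.209, 0.123, 0.187 and 0.0844). Col11a1, Col12a1, Col19a1 and Col25a1 kept theirs, and Col5a2 (-0.33) and Col7a1 (-0.47) passed (0.0342 and 0.0127). With the GC correction neither rise passed, with Col4a6 at 0.14 (adjusted p = 0.324) and Col17a1 at 0.28 (adjusted p = 0.224), and with replicate 1 alone none of the 8 passed. Relative to 2 months, Col20a1 (-0.40), Col24a1 (-0.64), Col15a1 (-0.23), Col4a5 (-0.25) and Col5a2 (-0.54) fell, and Col18a1 (0.36) and Col6a1 (0.36) rose. With the GC correction Col18a1 was at 0.04 (adjusted p = 0.815) and Col6a1 at 0.13 (adjusted p = 0.31), neither past the test, and the 5 falls kept their calls. With replicate 1 alone none of these 7 passed. In all, 9 collagens passed the test in no comparison but those with 30 months, and 14 passed in none at all. Without a covariate or correction, these 14 were Col4a1, Col4a3, Col4a4, Col5a1, Col6a4, Col6a6, Col7a1, Col8a1, Col9a2, Col10a1, Col13a1, Col14a1, Col26a1 and Col28a1. With the GC correction Col4a1, Col7a1 and Col26a1 fell at 30 with 2 months (-0.25, -0.49 and -0.43, edgeR adjusted p = 0.00334, 0.00238 and 0.006). They fell at 30 with 24 months as well (-0.22, -0.57 and -0.46, adjusted p = 0.00986, 0.000546 and 0.00389).

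**Figure D5:**
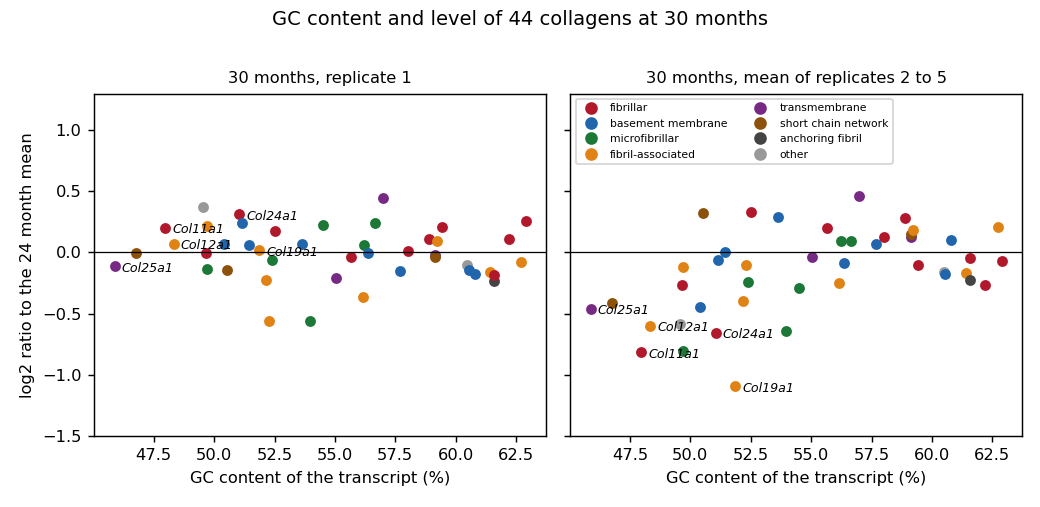
Log2 ratio of each of 44 collagens to the 24 month mean (y axis) against the GC content of its longest coding transcript in percent (x axis), for replicate 1 of 30 months (left) and the mean of replicates 2 to 5 (right), coloured by class. Col19a1, at 51.9% GC, is the lowest point on the right and is not low on the left. Col6a4 is low on both sides, at -0.56 in replicate 1.

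Other changes at 30 months lay in the same direction as at 24 months, both relative to the same libraries of 2 months. Col2a1 stood at 3.51 CPM in replicate 1 and 2.21 to 3.25 in replicates 2 to 5, against 1.33 to 1.91 at 2 months, and Col5a3 at 5.69 to 7.04 CPM in all 5 libraries, against 3.34 to 4.50. Their log2 fold changes relative to 2 months were 0.74 (edgeR adjusted p = 0.000508) and 0.69 (adjusted p = 1.89e-05), and 1.07 (adjusted p = 0.00445) and 0.57 (adjusted p = 0.0454) with replicate 1 alone. Col6a2 stood at 26.9 to 35.0 CPM, above all 2 month libraries (0.42, adjusted p = 0.000226). With the GC correction Col2a1 was at 0.42 (adjusted p = 0.0681) and Col6a2 at 0.18 (adjusted p = 0.0589), neither past the test, and Col5a3 passed at 0.35 (adjusted p = 0.0091). With replicate 1 alone Col6a2 did not pass either (0.38, adjusted p = 0.087). Col1a2 stood at 25.6 to 39.4 CPM at 30 months and 35.4 to 77.0 at 2 months (-0.64, adjusted p = 0.000552), Col1a1 averaged 21.6 ± 4.74 at 30 months and 34.3 ± 16.2 at 2 months (SD, n = 5 each; -0.66, adjusted p = 0.00758) and Col3a1 averaged 10.7 ± 2.43 and 16.9 ± 4.62 at those ages (-0.66, adjusted p = 0.00443). These 3 falls passed with the GC correction, and with replicate 1 alone they were at -0.84, -0.81 and -0.80 and did not pass (adjusted p = 0.0862, 0.289 and 0.22). At 30 months Alb was below 1 CPM in 4 of the 5 libraries. The call of Col1a1 was lost without replicate 4 of 2 months (0.0586), and that of Col4a5 without replicate 1, 2 or 4 of 2 months or 3, 4 or 5 of 30 months (up to 0.129).

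The genes that make, cut, bind or accompany collagen were read as 7 lists, and the share of all genes called was 22.3% at 24 with 2 months and 16.6% in the trend. Of 19 hydroxylases and chaperones, 1 rose and 1 fell at 24 with 2 months and in the trend. Serpinh1, the procollagen chaperone HSP47, averaged 15.1 ± 1.13 CPM at 24 months and 18.6 ± 1.67 at 2 months (SD, n = 5 each; trend -0.39 over 22 months, edgeR adjusted p = 0.031), while P4hb, a subunit of prolyl 4-hydroxylase, rose (0.12, adjusted p = 0.00844). Of 12 genes of export and propeptide removal 2 rose and 2 fell in both. They were Pcolce2, an enhancer of propeptide cleavage (trend 0.35, adjusted p = 0.00356), the coat subunits Sec24d (0.20) and Sec23a (-0.13), and Adamts3, a propeptide protease (-0.23), which was named after its value was seen. None of 7 cross-linking genes, lysyl oxidases among them, passed at 24 with 2 months or in the trend (edgeR), and 1 of them, the peroxidase Pxdn, had an unadjusted p under 0.05 in each.

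Of 9 tested collagen receptors 2 rose and 3 fell at 24 with 2 months, against 22.3% of all genes called, and 2 rose and 1 fell in the trend, against 16.6%. The integrin chain Itga1 fell (trend -0.34, edgeR adjusted p = 0.0104), the leukocyte receptor Lair1 rose (0.29, adjusted p = 0.0191), and Adgrg1, a receptor of type III collagen in the developing brain, rose (0.17, adjusted p = 0.0291). Of 10 tested genes of breakdown and its inhibitors, 2 rose at 24 with 2 months and 1 in the trend, the protease inhibitor Timp2 (0.12, adjusted p = 0.00889). Of 8 tested proteoglycans of fibrils 1 rose and 1 fell at 24 with 2 months, and in the trend Fmod, which binds type I fibrils, fell (-0.23, adjusted p = 0.0115). Of 16 partners of type IV collagen 1 rose and 3 fell at 24 with 2 months, and 1 rose and 2 fell in the trend. Nid1, which joins the laminin and type IV networks, averaged 13.8 ± 0.353 CPM at 24 months and 17.1 ± 0.962 at 2 months (SD, n = 5 each; trend -0.31, adjusted p = 0.00237), Agrn fell (-0.15, adjusted p = 0.0151) and the laminin chain Lama5 rose (0.22, adjusted p = 0.0149).

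The levels of marker genes of other cell types stood beside these values. The 12 markers of meningeal fibroblasts, collagens left out, summed to 217 to 245 CPM at 24 months, against 214 to 268 at 2 months, and none rose and 1 fell at 24 with 2 months, against 10.8% of all genes higher and 11.5% lower. The choroid plexus markers summed to 614 to 734 CPM at 24 months, against 489 to 555 at 2 months, with none of 8 past the test, and to 41.8 CPM in replicate 1 of 9 months. The test took its spread from all 20 libraries of 2 to 24 months, that replicate among them. It therefore cannot decide whether the choroid plexus markers differed between 24 and 2 months. The skeletal muscle markers summed to 36.4 to 73.0 CPM at 24 months, against 43.97 to 112 at 2 months, with 1 of 6 lower. Their part in the collagen values was not tested.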

How the data were processed

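Total RNA of brain hemispheres was prepared with a TruSeq RNA kit, per the labels' protocols. CASAVA 1.7, STAR 2.4.1d, featureCounts 1.4.6-p4 and GRCm38 are named in the submitters' processing notes. The deposited table holds raw counts per Ensembl gene made by the authors; the strand setting and annotation release are not given in the sources used here. The deposited RPKM were not used. Of 47729 genes, 47310 matched GENCODE M21. Genes were filtered with filterByExpr and scaled by TMM over 25 libraries. The quasi-likelihood test of edgeR 4.0.16 in R 4.3.3 (robust, two-sided, Benjamini-Hochberg over 17799 genes, threshold 0.05) used the 20 libraries of 2 to 24 months, and all 25 for 30 months. The SE is the log2 fold change over the root of F. The fits were tested on simulated data. No replicates were identical, and their lowest chi-square per degree of freedom was 1.54. Every collagen past the test is described; of the other lists, up to 3 genes per role past the trend test are named by smallest p, and Adamts3 was named besides, after its value was seen. The members and lists were chosen with earlier results of these data known. Exon bases shared with another gene were found in 13 collagens, at most 6.07% (Col9a3, with Tcfl5), and without a stated strand such reads cannot be told apart. Alternatives used DESeq2 1.42.0, limma 3.58.1, other scalings, no filter, a liver covariate, a GC correction and libraries left out.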

Additional observations from a re-analysis of the deposited data

Results flagged for a closer look

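In 5 of the 220 groups of 5 libraries (44 collagens at 5 ages), 1 library stood far from the other 4. By chance about 1 group in 20 is marked in this way. Col9a2 stood at 12.97 CPM in replicate 5 of 30 months, against 6.47 to 8.08 CPM in the other 4. In Col12a1, replicate 1 of 30 months had 21.2 CPM, against 12.2 to 14.1 CPM in replicates 2 to 5, which are the libraries that read GC-poor genes low. Col19a1 stood at 20.5 CPM in replicate 1 of 9 months, against 23.9 to 25.3 CPM. That library is also the one with Ttr, a choroid plexus marker, at 17.9 CPM. It was the lowest of 9 months in Col8a1, Col8a2 and Col9a3 as well, at 3.02, 3.27 and 7.71 CPM. The other libraries of 9 months stood at 5.88 to 7.70, 4.29 to 5.21 and 10.04 to 14.6 CPM. Col20a1 stood at 5.86 CPM in replicate 2 of 24 months, against 3.93 to 4.22 CPM. Col27a1 stood at 7.22 CPM in replicate 2 of 9 months, against 8.73 to 9.15 CPM.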

How the results depend on the processing

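No paired analysis was possible because the replicate numbers come from accession order and link no library to another age. With all 25 libraries in 1 fit, whose shared spread then includes the libraries of 30 months, 3 collagens passed at 9 with 2 months, 2 at 15 with 2, 6 at 24 with 2 and 5 at 24 with 9 months. With the liver covariate 3 passed at 24 with 2 months, 4 at 24 with 9 and 3 in the trend; in the first these were Col2a1, Col5a3 and Col6a2, all higher. Without replicate 4 of 2 months and replicate 1 of 9 months, an alternative added after seeing the data, 4 passed at 9 with 2 months. With a GC correction 20 passed at 30 with 24 months, all lower. Without replicates 2 to 5 of 30 months 3 passed at 30 with 2 and 0 at 30 with 24 months, and with the GC correction added, also after seeing the data, 2 and 0. In these 2 settings the log2 fold change turned to 0.0620 and 0.0758 (Col11a1) and 0.113 and 0.115 (Col24a1) at 30 with 2 months. At 30 with 24 months it turned to 0.0111 and 0.0162 (Col19a1), 0.204 and 0.201 (Col11a1), 0.319 and 0.322 (Col24a1) and 0.0743 and 0.0718 (Col12a1). The cause was not tested.

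Leaving out 1 library gave 5 to 9 collagens at 9 with 2 months, 4 to 7 at 15 with 2, 10 to 14 at 24 with 2, 7 to 12 at 24 with 9, 15 to 23 at 30 with 2, 7 to 15 at 30 with 24 and 8 to 12 in the trend. The 7 at 24 with 9 months came without replicate 3 of 24 months, and the 7 at 30 with 24 months without replicate 3 of 30 months. Of 78 gene results, the 49 of 2 to 24 months kept their direction in all 992 recomputed values and their call in 814. The 29 of 30 months kept their call in 455 of 580. The correlation count of 3 pairs held with a pseudocount of 0.1 CPM and with scaling by total counts. Chains under 1 CPM, such as Col9a1 and Col10a1, are limited by depth.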
